A study of Mus musculus with 10 samples.

Results

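The cytosolic ribosomal protein genes are the genes of the proteins that, with the ribosomal RNAs, make up the large and the small subunit of the ribosome outside mitochondria. They were taken by symbol as all protein-coding genes named Rpl, Rplp or Rps followed by a number and at most 1 letter, which leaves out the S6 kinases and the pseudogenes. This gave 79 of 56748 gene identifiers, 49 of the large and 30 of the small subunit. RNA-seq counts were of beta cells that flow cytometry had sorted out of dispersed islets. The islets came from males, 6 to 8 weeks of age, of the NOD mouse, an inbred strain in which autoimmune diabetes arises spontaneously. Before dispersal and sorting, the islets had been cultured either with lipopolysaccharide (LPS, a bacterial cell wall component) at 50 ng/ml for 48 hours, 5 libraries numbered 6 to 10, or untreated, 5 libraries numbered 1 to 5. The design text calls the samples independent without naming the animals behind each library or the gate that marked beta cells, so p-values measure the spread between these libraries. Counts assigned to genes ran from 18465188 to 27379892 in LPS and from 23269906 to 26137820 in untreated libraries.

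Ribosomal protein genes are transcribed at high rates in all growing or secreting cells, and their products are used in equal numbers, 1 of each per ribosome for nearly all of them. In vertebrates their messages start with a terminal oligopyrimidine (TOP) tract, a cytidine followed by a run of pyrimidines, through which mTORC1 and the RNA-binding protein Larp1 control their translation together. Beta cells make large amounts of secretory protein, and insulin synthesis is under control at the level of translation.

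To show the shared start, the 15 bases before and the first 15 bases of the annotated transcript are given for members of both subunits, written 5′ to 3′ from RefSeq's promoter table of build GRCm38.p6. That build differs from GRCm39, which the submitters name for the counts. Capitals mark a C at the annotated start with the run of C and T bases that follows it.
Rplp2 (chr7:141447636-141447665, + strand): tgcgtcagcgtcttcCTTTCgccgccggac
Rpl28 (chr7:4792950-4792979, + strand): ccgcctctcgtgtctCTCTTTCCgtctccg
Rpl35 (chr2:39005117-39005146, - strand): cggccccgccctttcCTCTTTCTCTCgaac
Rpl38 (chr11:114668565-114668594, + strand): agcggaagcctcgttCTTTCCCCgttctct
Rps6 (chr4:86857353-86857382, - strand): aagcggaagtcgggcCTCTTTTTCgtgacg
Rps27 (chr3:90213634-90213663, - strand): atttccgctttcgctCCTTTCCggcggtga
Rpl39, which had the highest fold change of all members, and Rplp0, the member with the smallest spread, have no such tract at the start that this table gives.
Rpl39 (chrX:37085208-37085237, - strand): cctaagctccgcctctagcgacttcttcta
Rplp0 (chr5:115559452-115559481, + strand): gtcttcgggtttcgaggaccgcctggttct
Of the members, 59 matched the table with 71 promoters. A C followed by at least 4 bases of C or T stood exactly at the annotated start in 13 of the 71 (18.3%), against 823 of all 32851 promoters in the table (2.51%). The letters CCGGAAG, the core of the ETS factor motif, read on both strands of the 300 bases around the start, occurred in 25 of the 71 (35.2%) against 8.86% of all promoters. The letters AAGATGGC, of the YY1 motif, were found in 9.86% against 2.75%, and TATAAA, of the TATA box, in 8.45% against 13.6%. The median log2 fold change, LPS over untreated, was 0.11 for the 13 genes with the tract and 0.10 for the other 43 that were matched and tested.

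In the sorted cells 68 of the 79 members had a mean level of at least 100 CPM (counts scaled to a common library size, TMM-normalised), 5 lay between 20 and 100, 2 between 1 and 20, and 4 under 1. Together they took 2.10, 2.13, 2.00, 2.40 and 2.61% of the counts in LPS 6 to 10, against 2.00, 1.92, 1.93, 2.26 and 2.38% in untreated 1 to 5. The groups overlapped, with means of 2.25 ± 0.249% in LPS and 2.10 ± 0.210% in untreated libraries (SD, n = 5 each). LPS 10 and LPS 9 were highest, followed by untreated 5 and untreated 4. The 5 most abundant members held 17.3% and the 10 most abundant 28.8% of all ribosomal protein counts.

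The largest counts of single members were those of Rpl4, a protein with a long loop into the tunnel through which the nascent chain leaves. It stood at 1205, 1130, 1147, 1161 and 1286 CPM in LPS 6 to 10, against 1145, 1054, 1068, 1144 and 1219 CPM in untreated 1 to 5. The ranges overlapped and the log2 fold change was 0.07 ± 0.06 (SE; edgeR adjusted p = 0.661). Rpl10, which joins the large subunit late in its assembly, averaged 811 ± 94.3 CPM in LPS and 783 ± 70.3 CPM in untreated libraries. Other abundant members were Rpl8 (641 CPM in LPS, 600 in untreated) and Rpl41 (534 CPM in LPS, 505 in untreated), with Rps4x (576 CPM in LPS, 569 in untreated) and Rps2 (546 CPM in LPS, 523 in untreated) first in the small subunit. Rps9 (437 CPM in LPS, 409 in untreated) and Rps3 (434 CPM in LPS, 404 in untreated) came next, and none of these passed (edgeR adjusted p from 0.613 to 0.956). Rpl15, among the members of smallest spread, averaged 215 ± 15.9 CPM in LPS and 208 ± 12.4 CPM in untreated libraries. Per kilobase of coding length, the 73 members of at least 20 CPM had a median of 577 CPM, and the middle 50% of them lay between 435 and 727. Rpl41, with the shortest coding length taken from the annotation (138 bases), was highest at 3768 CPM per kb of coding length. That scale depends on the annotated length and counts reads in untranslated parts too. Rpl41 was followed by Rplp1 (1363 CPM per kb), Rpl10 (1242) and Rps29 (1227), and Rpl29 was lowest at 63.1.

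A few members stood far below the others. Rpl24 had 0.689 ± 0.397 CPM in LPS and 0.844 ± 0.194 CPM in untreated libraries, Rps10 had 2.14 ± 0.484 CPM in LPS and 2.11 ± 0.464 CPM in untreated, and Rpl13a had 12.1 ± 1.40 CPM in LPS and 10.8 ± 1.43 CPM in untreated. In the GENCODE M21 annotation, which is of another build than the counts, 47.0% of the exonic bases of Rpl24, 20.6% of those of Rps10 and 35.4% of those of Rpl13a also belong to another gene on the same strand. Reads in such bases can be set aside as ambiguous, a class that held 1.40 to 1.61% of all reads, and the part of this in the low values was not tested.

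Of the copies with restricted expression, Rpl10l, a testis copy of Rpl10, was at 0 counts throughout. That allows at most 0.0269 CPM over the LPS and 0.0246 CPM over the untreated libraries (3 counts, counting error only). Rpl39l, also known from testis, had 2 counts over the LPS and 0 over the untreated libraries, and the heart and muscle copy Rpl3l had 4 and 1. These 3 were too low to be tested, and the other 76 members were tested. Rps27l, a copy of Rps27 that p53 induces, was expressed: it had 45.1, 42.4, 32.8, 43.6 and 48.1 CPM in LPS 6 to 10, against 42.4, 37.1, 34.1, 40.0 and 39.2 CPM in untreated 1 to 5. It made up 14.4 ± 1.30% of Rps27 and Rps27l together in LPS and 14.1 ± 1.30% in untreated libraries, for coding sequences of the same length. Rps4l, which the annotation lists as a transcribed pseudogene and the rule leaves out, stood at 25.4 ± 7.85 CPM in LPS and 24.5 ± 4.03 CPM in untreated libraries.

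At an adjusted p under 0.05, edgeR's quasi-likelihood test of LPS against untreated called none of the 76 tested members, where 3.77% of all 15942 genes passed, and 2.84% passed as higher in LPS. At an unadjusted p under 0.05 there were 4 members, or 5.26%, against 15.3% of all genes. The values were small and nearly all on one side: 75 fitted log2 fold changes were above 0 and 1 below, with a median of 0.099, while 47.9% of all genes were above 0 and their median was -0.009. The middle 50% of the members lay between 0.06 and 0.13, and the median SE was 0.10. The median was 0.09 in the large and 0.11 in the small subunit. DESeq2 called 1 member, Rpl39 (5.17% of all genes called). Limma-voom with quality weights called the same member (6.24%), as did edgeR once 1 surrogate variable was added (8.07%). Limma-voom without weights called none (3.64%), and edgeR without untreated 5 called 3, which were Rpl39, Rplp2 and Rps20 (3.78%). In bulk samples, fewer cells of a type and less RNA per cell cannot be told apart.

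**Figure D1:**
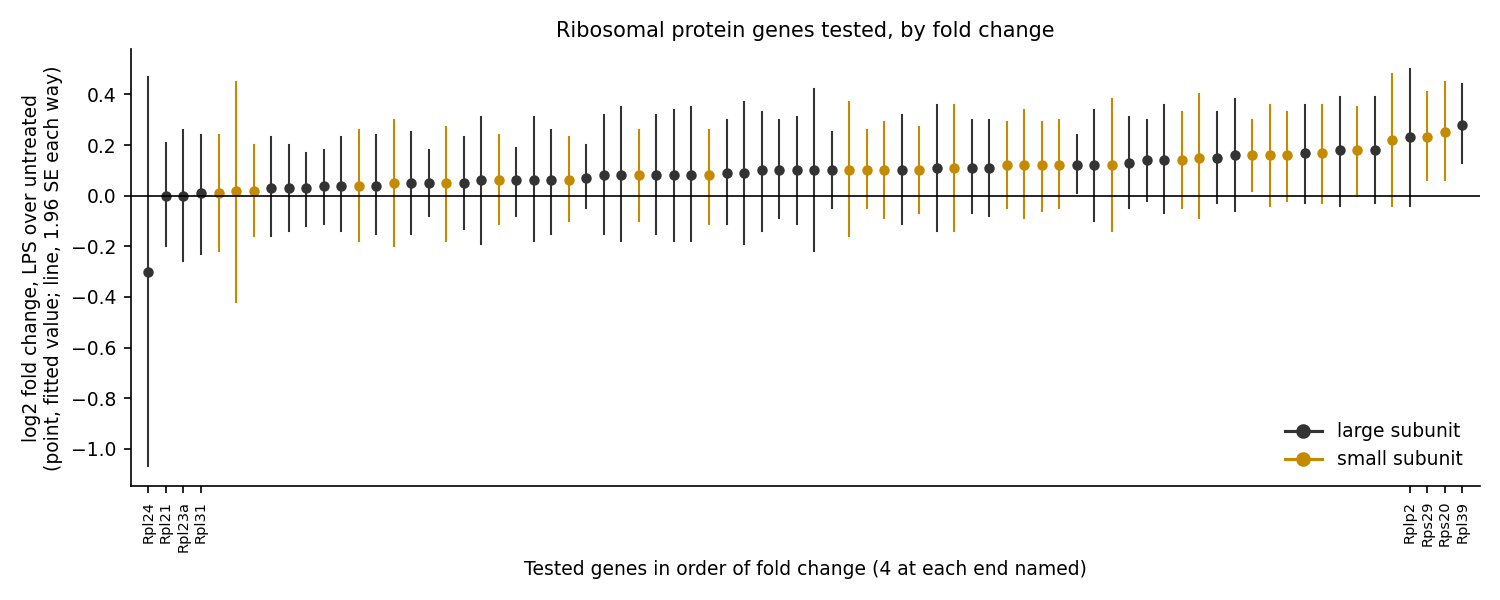
Log2 fold change of the 76 tested ribosomal protein genes, LPS over untreated, in order of size, with 95% intervals (black, large subunit; ochre, small subunit; the 4 genes at each end are named). The values run from -0.30 for Rpl24, a gene of few counts, to 0.28 for Rpl39, and most intervals include 0.

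Nearly all members deviated together within a library. LPS 10 was the highest library for 66 of the 76 tested members and untreated 5 for 9. The lowest library was LPS 8 for 23, untreated 3 for 25 and untreated 2 for 19. Within their own groups, all 76 members in LPS 10 and 72 in LPS 9 lay above the group mean, as did 72 in untreated 5 and 69 in untreated 4, against 1 in untreated 3 and 2 in untreated 2. Among the 73 members of at least 20 CPM, the shift common to a library held 72.1% of the within-group sum of squares of log2 CPM. The same share was 38.3% for 77 genes of mitochondrial ribosomal proteins. The median within-group SD of log2 CPM was 0.179 for the members, 0.122 for 6044 other genes between 30.3 and 1156 CPM, and 0.096 for the members once the library shift was taken off. These shares are descriptions of 10 libraries, with no test. The members' median log2 fold change moved with single libraries: it was 0.029 without LPS 10, with 52 of 76 members above 0, and 0.154 without untreated 5, with 74 above 0.

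**Figure D2:**
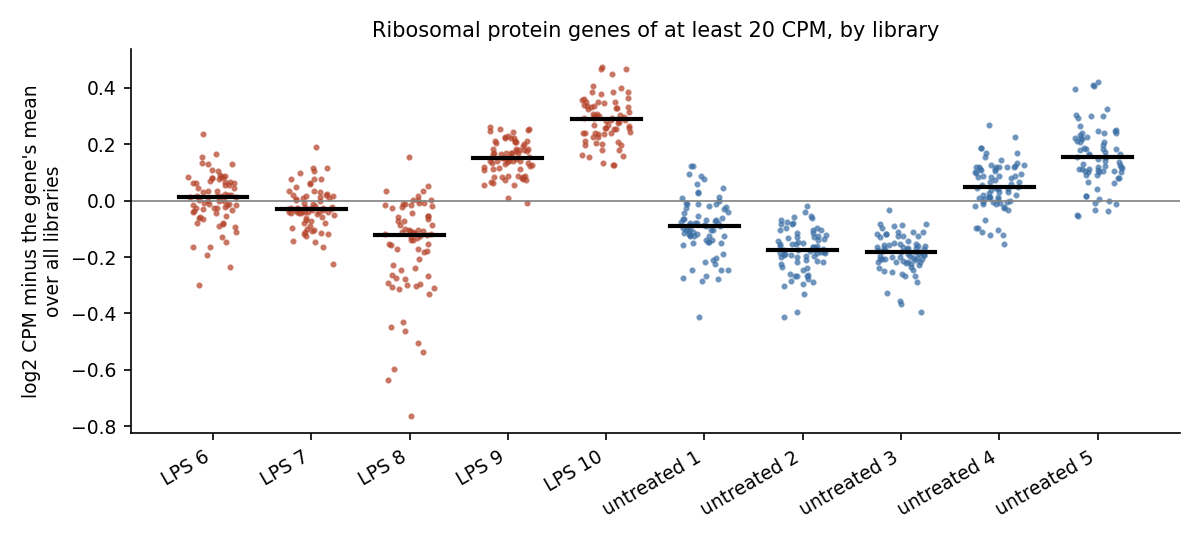
Deviation of each of the 73 ribosomal protein genes of at least 20 CPM from its own mean over the 10 libraries, in log2 CPM (points, genes; black bars, medians; red, LPS; blue, untreated). The medians of LPS 10, LPS 9, untreated 5 and untreated 4 lie above 0, and those of LPS 8, untreated 1, untreated 2 and untreated 3 below it. Those of LPS 6 and LPS 7 lie near 0, and LPS 8 has the widest scatter.

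Other measures of the libraries moved with this shift in part. The insulin genes Ins1 and Ins2 took 8.57, 8.56, 9.12, 10.2 and 11.4% of counts in LPS 6 to 10, against 9.98, 10.8, 10.2, 10.4 and 11.8% in untreated 1 to 5. Mitochondrially encoded genes took 1.73, 1.85, 1.84, 2.25 and 2.88% in LPS 6 to 10, against 2.00, 2.06, 2.31, 3.09 and 3.22% in untreated 1 to 5. In both groups the library with the most ribosomal protein counts also had the most insulin and mitochondrial counts. For both measures the order of the other libraries differed. Untreated 2 and LPS 8, with the lowest ribosomal protein shares of their groups, had 10.8 and 9.12% insulin, above untreated 4 (10.4%) and LPS 6 (8.57%). In mitochondrial counts too, untreated 2 (2.06%) and LPS 8 (1.84%) lay above untreated 1 (2.00%) and LPS 6 (1.73%). The 4 alpha cell markers summed to 4032 CPM in LPS 10 (5709 to 8951 in the other LPS libraries) and to 4845 CPM in untreated 5 (7313 to 13889 in the other untreated libraries), so the same libraries had the least alpha cell RNA. Lymphocyte markers summed to at most 3.59 CPM in any library. With the insulin share as a covariate, a setting added after the data were seen, 31 members were called higher in LPS (median 0.239; 15.7% of all genes called), and with the mitochondrial share 31 (median 0.223; 9.90% of all genes), of which 27 were called in both, 87.1% of each list. With the alpha cell marker level as the covariate none was called, the median was -0.017 and 31 of 76 members were above 0 (5.31% of all genes called). The covariates are themselves RNA measurements of the same libraries, and their part in the members' shift was not tested.

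**Figure D3:**
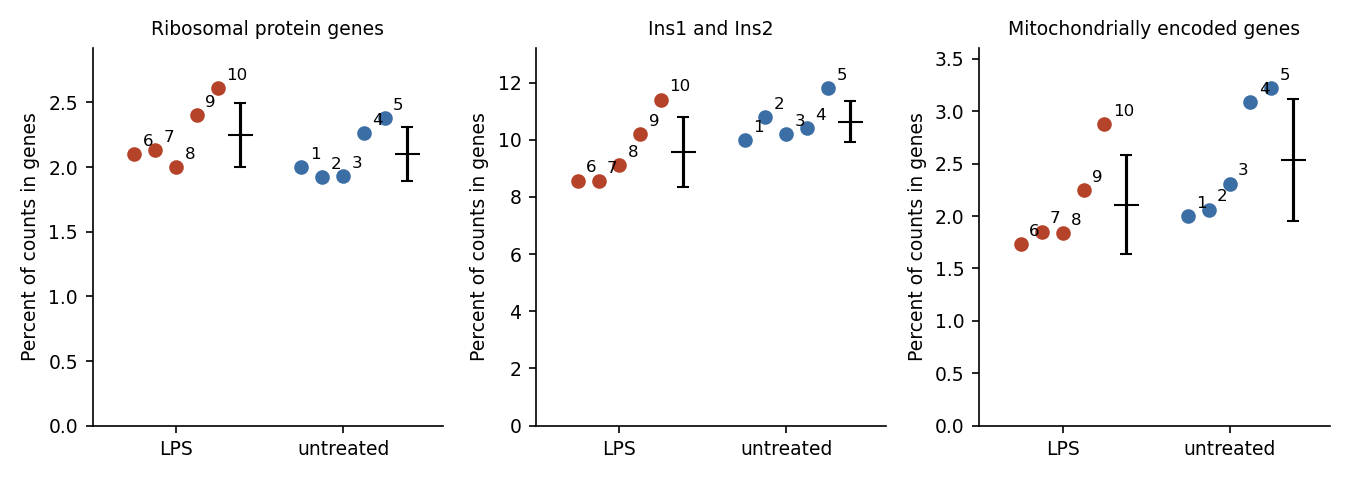
Percent of gene counts in the ribosomal protein genes, the 2 insulin genes and the mitochondrially encoded genes in each library (points with library numbers; bars, mean ± SD, n = 5). In each panel the groups overlap, and LPS 10 and untreated 5 are the highest of their groups.

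Of the 4 genes of the stalk, which recruits the GTPases of translation to the ribosome, none passed, and their log2 fold changes ran from 0.06 to 0.23. Rplp0, the base of the stalk, had 601, 620, 586, 649 and 650 CPM in LPS 6 to 10, against 563, 562, 546, 608 and 573 CPM in untreated 1 to 5. Only untreated 4 reached into the LPS range, and the log2 fold change of 0.12 ± 0.06 (SE) did not pass (edgeR adjusted p = 0.340). Rplp2, which sits on Rplp0 as a dimer with Rplp1, had 202, 209, 193, 224 and 238 CPM in LPS 6 to 10, against 146, 146, 167, 194 and 256 CPM in untreated 1 to 5. Untreated 5 was the highest library of all for it, and the log2 fold change was 0.23 ± 0.14 (SE; edgeR adjusted p = 0.480), or 0.38 without untreated 5 (adjusted p = 0.0436). Rplp1 averaged 495 ± 68.4 CPM in LPS and 437 ± 62.3 CPM in untreated libraries (0.18 ± 0.11, edgeR adjusted p = 0.492; 0.11 without LPS 10). Rpl12, which binds beside Rplp0 at the base of the stalk, had the lowest log2 fold change of the 4 (0.06 ± 0.11, edgeR adjusted p = 0.864). It averaged 435 ± 62.0 CPM in LPS and 418 ± 49.4 CPM in untreated libraries.

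Rpl39, a small protein in the wall of the exit tunnel, was the one member whose groups did not overlap, where 5.71% of all genes tested had groups that did not, and 3.84% had all LPS libraries above all untreated ones. It had 98.9, 101, 104, 105 and 107 CPM in LPS 6 to 10, against 86.8, 77.6, 71.0, 92.0 and 97.4 CPM in untreated 1 to 5. LPS libraries lay close together while untreated libraries were spread out, and LPS 6 and untreated 5 nearly met. The log2 fold change was 0.28 ± 0.08 (SE), 21.7% higher in LPS, and did not pass (edgeR adjusted p = 0.0767). The adjusted p was 0.0295 in DESeq2, 0.00866 in limma-voom with sample quality weights and 0.0228 with 1 surrogate variable, and ran from 0.0284 to 0.202 with single libraries left out. As a share of all ribosomal protein counts, Rpl39 held 0.465 ± 0.0455% in LPS and 0.403 ± 0.0194% in untreated libraries, and here the groups overlapped.

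The other 7 genes of the exit tunnel and exit port had log2 fold changes from 0.00 to 0.13, and none passed. Rpl35 had the highest of these fold changes (0.13 ± 0.09), with 138 ± 18.9 CPM in LPS and 126 ± 10.8 CPM in untreated libraries. Rpl19 came next by fold change (0.10 ± 0.12), with 215 ± 36.1 CPM in LPS and 201 ± 27.9 CPM in untreated libraries. Rpl23a, where the signal recognition particle and other factors dock, had 223, 215, 135, 234 and 256 CPM in LPS 6 to 10, against 212, 201, 205, 234 and 210 CPM in untreated 1 to 5. LPS 8 stood far below the rest, and the log2 fold change was 0.00 ± 0.13 (SE; edgeR adjusted p = 0.998). Rpl31 had a fold change near 0 as well (0.01 ± 0.12), also with its lowest value in LPS 8 (182 CPM). Rpl21, which is not of this group, was among the lowest fold changes of the large subunit, at 175 ± 25 CPM in LPS and 174 ± 20.5 CPM in untreated libraries (0.00 ± 0.10). The sign of Rpl21 and Rpl23a changed with the scaling, the test and the libraries used.

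Rpl5 and Rpl11, which form a particle with a small ribosomal RNA and can hold the p53 inhibitor Mdm2, averaged 402 ± 54.1 and 281 ± 35.2 CPM in LPS, against 393 ± 41.3 and 263 ± 37.7 CPM in untreated libraries. Neither passed (log2 fold changes 0.03 ± 0.10 for Rpl5 and 0.09 ± 0.11 for Rpl11, edgeR adjusted p = 0.924 and 0.752). In edgeR none of 14 genes of the p53 axis was called, 3 of them at an unadjusted p under 0.05 (15.3% of all genes). Its most abundant members were Trp53inp1 at 337 ± 149 CPM in LPS and 328 ± 80.2 CPM in untreated libraries, and Mdm4 at 146 ± 5.96 CPM in LPS and 158 ± 9.50 CPM in untreated.

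In the small subunit, Rps20, a protein of the head near the path of the messenger RNA, led by fold change. It had 294, 287, 249, 317 and 324 CPM in LPS 6 to 10, against 226, 217, 225, 262 and 305 CPM in untreated 1 to 5. Untreated 4 and untreated 5 lay within the LPS range. The log2 fold change was 0.25 ± 0.10 (SE; edgeR adjusted p = 0.237), and 0.34 without untreated 5 (adjusted p = 0.0479). Rps29, a zinc-binding protein of the head, had 205, 200, 197, 245 and 267 CPM in LPS 6 to 10, against 188, 185, 184, 184 and 207 CPM in untreated 1 to 5. LPS 9 and LPS 10 stood above all untreated libraries and the other LPS libraries below untreated 5 (0.23 ± 0.09, edgeR adjusted p = 0.205). Rps13, with Rpl39, Rps20 and Rps29, made up the members past the unadjusted threshold. It stood at 210 ± 16.4 CPM in LPS and 188 ± 14.9 CPM in untreated libraries (0.16 ± 0.07, edgeR adjusted p = 0.322; named after its values were seen). Rps28 averaged 140 ± 23.0 CPM in LPS and 120 ± 23.3 CPM in untreated libraries (0.22 ± 0.13, or 0.12 without LPS 10).

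**Figure D4:**
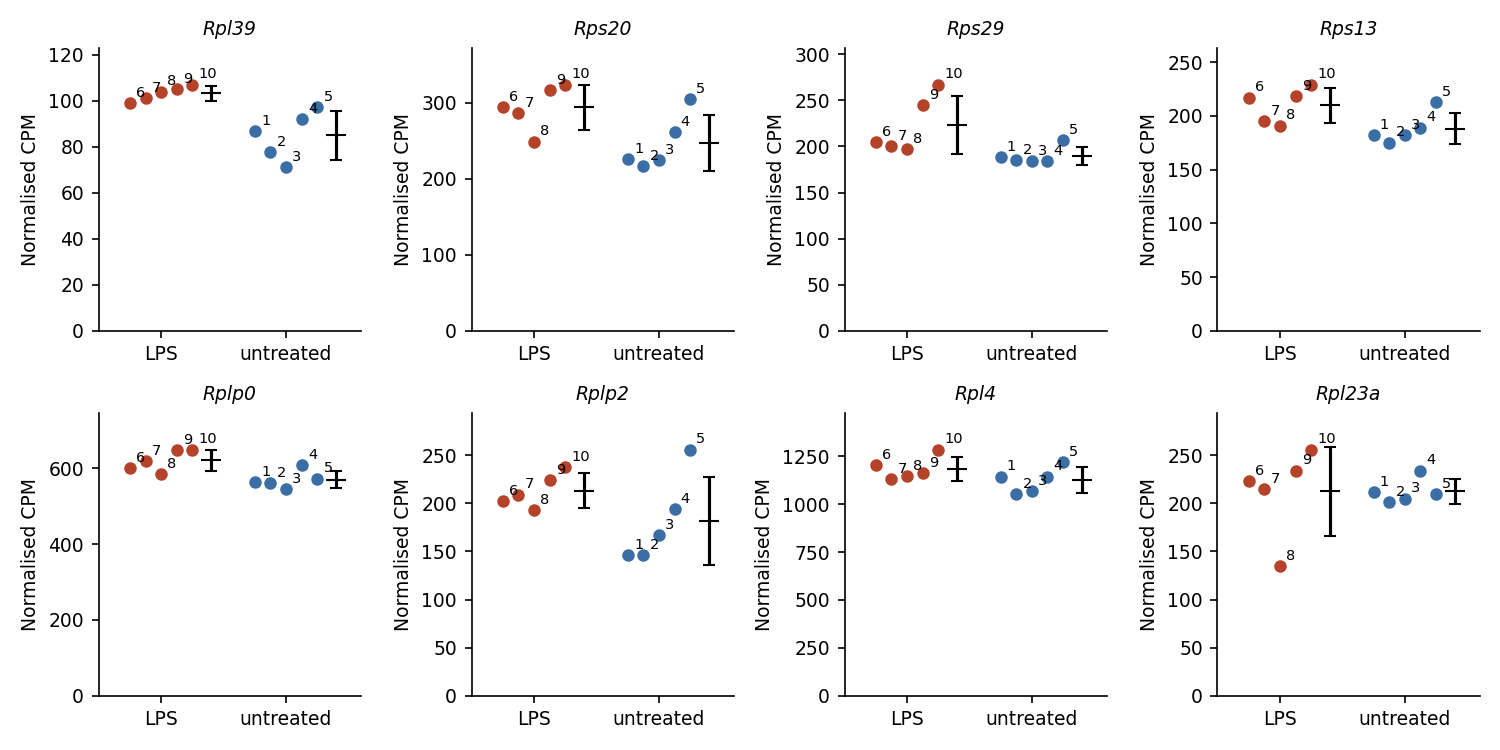
Normalised CPM of 8 ribosomal protein genes in each library (points with library numbers; bars, mean ± SD, n = 5). Rpl39 is the one panel where all LPS libraries lie above all untreated libraries, and Rpl23a shows the low value of LPS 8 (135 CPM).

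Members with known roles in disease or signalling did not pass either, with log2 fold changes from 0.01 for Rps14 to 0.16 for Rpl13a. Rps6, the substrate of the S6 kinases downstream of mTORC1, averaged 335 ± 58.0 CPM in LPS and 326 ± 23.5 CPM in untreated libraries, and its log2 fold change of 0.04 had a 95% interval from -0.18 to 0.26. Rps14 averaged 343 ± 56.1 CPM in LPS and 341 ± 47.6 CPM in untreated (interval -0.22 to 0.24), and Rps19, mutated in Diamond-Blackfan anaemia in humans, 200 ± 31.3 CPM in LPS and 180 ± 31.4 CPM in untreated (-0.09 to 0.40). Rpl13a, which in human monocytes takes part in translational silencing after interferon-gamma, had an interval of -0.06 to 0.38 on the few counts given above. Rpl38, required for translation of Hox messages in the mouse embryo, averaged 123 ± 22.6 CPM in LPS and 112 ± 10.1 CPM in untreated libraries (-0.07 to 0.36), and Rpl22 150 ± 9.32 CPM in LPS and 144 ± 11.8 CPM in untreated (-0.08 to 0.19). Rps27a, a ubiquitin fusion gene, averaged 286 ± 48.8 CPM in LPS and 277 ± 29.9 CPM in untreated (-0.18 to 0.27). Rps25 (log2 fold change 0.12), used by viral and cellular internal ribosome entry sites, Rps26 (0.12, or 0.03 without LPS 10), near the exit of the messenger RNA, Rps27 (0.08) and Rpl3 (0.10) did not pass.

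LPS 8 stood apart among the libraries in how unevenly the members were lowered. In it, 15 of the 73 members lay below 75% of the mean of the other 4 LPS libraries, against at most 1 member in any other library set against its own group. Rpl29 (50.3% of the other 4), Rpl27 (57.8%), Rpl23a (58.3%), Rpl27a (61.1%) and Rps18 (63.5%) were lowest, while Rpl39 (104 CPM) lay amid the other LPS libraries. These members, Rpl12, Rpl19, Rpl31 and Rpl35 were named after their values were seen. Of the 15, 14 have at least 1 pseudogene of their name in the annotation, with a median of 3, and of the other 58 members 42 have one, with a median of 1. Pseudogenes named after ribosomal protein genes took 0.0240% of counts in LPS 8, against 0.0323 to 0.0466% in the other LPS libraries and 0.0318 to 0.0395% in untreated libraries. Reads aligned to more than 1 place made up 6.02% in LPS 8, as in LPS 10, and from 4.89 to 6.10% elsewhere. Members with near-identical pseudogenes can lose reads to them or to this class, so their single values are uncertain, and the part of this in LPS 8 was not tested. Without LPS 8 the median log2 fold change of the members was 0.137, with none called (579 of all 16192 genes called). At an unadjusted p under 0.05 there were 9 of 76 members. With all 10 libraries 15.3% of all genes were at that threshold, and the share of all genes without LPS 8 was not computed.

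Of the related ribosomal genes that the symbol rule leaves out, none of 10 tested passed. An unadjusted p under 0.05 was found for 2 of them (15.3% of all genes). Above 0 were 8 (47.9% of all genes), with a median log2 fold change of 0.11. Rpsa had 914 ± 113 CPM in LPS and 865 ± 115 CPM in untreated libraries, Rack1, the scaffold on the small subunit, 666 ± 42.0 CPM in LPS and 628 ± 43.9 CPM in untreated, and Rps3a1 631 ± 77.2 CPM in LPS and 653 ± 58.7 CPM in untreated. Fau, a fusion gene of the small subunit, averaged 251 ± 53.8 CPM in LPS and 228 ± 29.4 CPM in untreated. The nearest to the threshold was Rpl7l1, a relative of Rpl7, at 40.0 ± 2.80 CPM in LPS and 33.7 ± 2.28 CPM in untreated libraries (0.25 ± 0.07, edgeR adjusted p = 0.0801), which DESeq2 and limma-voom with quality weights called. Rpl22l1 made up 26.9 ± 0.820% of Rpl22 and Rpl22l1 counts together in LPS and 26.4 ± 1.43% in untreated libraries. Of the pseudogenes named after members, 87 were tested and none was called in edgeR. An unadjusted p under 0.05 was found for 2 (15.3% of all genes), and the median log2 fold change was -0.06. DESeq2 called none and limma-voom with quality weights 1, Rpl3-ps1.

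Of 30 genes of ribosome biogenesis, 2 rose and none fell, with 8 at an unadjusted p under 0.05 and a median of 0.12. Among all genes tested in edgeR, 3.77% were called, 2.84% as higher in LPS, and 15.3% had an unadjusted p under 0.05. Eif6, which keeps the large subunit apart from the small one until it is mature, rose to 86.6 ± 10.6 CPM in LPS, against 62.9 ± 6.61 CPM in untreated libraries (0.46 ± 0.09, edgeR adjusted p = 0.0124). Nip7, a factor of ribosomal RNA processing, rose to 19.5 ± 1.11 CPM in LPS, against 15.8 ± 0.945 CPM in untreated libraries (0.30 ± 0.08, edgeR adjusted p = 0.0432). For both Eif6 and Nip7 all LPS libraries lay above all untreated ones, as for 3.84% of all genes tested. Among 16 translation factor genes whose messages carry a TOP tract, none was called (1 at an unadjusted p under 0.05; median 0.04). Eef1a1 averaged 4681 ± 344 CPM in LPS and 4674 ± 267 CPM in untreated libraries, and Eef2 2998 ± 162 CPM in LPS and 2924 ± 140 CPM in untreated libraries. None of 12 genes of RNA polymerase I transcription (2 at an unadjusted p under 0.05), 23 of mTORC1 signalling and translation control (4), 13 of ribosome quality control (3) and 5 around the Rpl13a silencing complex (2) passed, with median log2 fold changes of 0.04, 0.00, 0.06 and 0.00 in that order. Of these, Ubtf had 128 ± 5.57 CPM in LPS and 140 ± 12.5 CPM in untreated libraries, Eif4g1 610 ± 53.5 CPM in LPS and 608 ± 36.0 CPM in untreated, Tcf25 591 ± 28.4 CPM in LPS and 566 ± 33.6 CPM in untreated, and Gapdh 630 ± 90.5 CPM in LPS and 561 ± 35.2 CPM in untreated. A further 9 kinase genes were listed only because they carry the name Rps6k, and they are no ribosomal proteins. Of these, Rps6ka2 fell to 121 ± 14.4 CPM in LPS, against 158 ± 12.6 CPM in untreated libraries (-0.39 ± 0.09, edgeR adjusted p = 0.0265). Mitochondrial ribosomal protein genes had 61 of 77 values above 0 and a median of 0.08, with none called and 11 at an unadjusted p under 0.05. Their most abundant members were Mrpl24 at 66.5 ± 12.5 CPM in LPS and 62.2 ± 10.4 CPM in untreated libraries, and Mrpl10 at 63.9 ± 3.2 CPM in LPS and 61.8 ± 2.76 CPM in untreated libraries. DESeq2, which called 5.17% of all genes, called 3 genes higher in LPS of the mTORC1 list (Eif4ebp1, Myc and Sesn2). It also called 3 of the mitochondrial ribosomal proteins (Mrpl17, Mrpl27 and Mrps18b), Sesn2 of the p53 axis and Pelo of the quality control list. It called none of the TOP, RNA polymerase I and silencing complex lists. Limma-voom without weights, which called 3.64% of all genes, called none of these mTORC1, mitochondrial, p53 and quality control genes, and of the biogenesis genes Eif6 alone. With quality weights (6.24% of all genes) it called Eif4ebp1, Myc, Sesn2, Mrpl17, Mrpl27, Mrps12 and Mrps18b, all higher in LPS, but not Pelo. Of the biogenesis genes it then called Eif6 and Nip7.

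Markers of other cells were checked once. The 10 beta cell markers summed to between 101964 and 134049 CPM in LPS and between 118261 and 137066 CPM in untreated libraries, 3 of them lower in LPS (Slc2a2, Slc30a8 and Ucn3). Delta cell markers summed to 4975 to 9060 CPM in LPS and 6072 to 8201 CPM in untreated libraries, and markers of pancreatic polypeptide cells to 466 to 1236 CPM in LPS and 849 to 2011 CPM in untreated libraries, with Ppy lower in LPS. Of the 8 lymphocyte markers 4 were at 0. Acinar markers reached at most 620 CPM in LPS and 455 CPM in untreated libraries, and ductal markers 522 to 669 CPM in LPS and 445 to 572 CPM in untreated libraries, with Spp1 and Muc1 higher in LPS. Macrophage markers summed to 36.4 to 46.7 CPM in LPS and 29.2 to 42.0 CPM in untreated libraries. Of the 2 macrophage markers tested, Cd68 was higher in LPS (log2 fold change 0.68). The other stood at -0.35 and was not called. Endothelial markers summed to 9.37 to 12.5 CPM in LPS and 10.5 to 34.0 CPM in untreated libraries (Kdr lower in edgeR, not in DESeq2 or limma-voom). Mesenchymal markers summed to 4.30 to 28.4 CPM in LPS and 6.00 to 94.7 CPM in untreated libraries. The part of these cell types in the members' values was not tested.

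**Figure D5:**
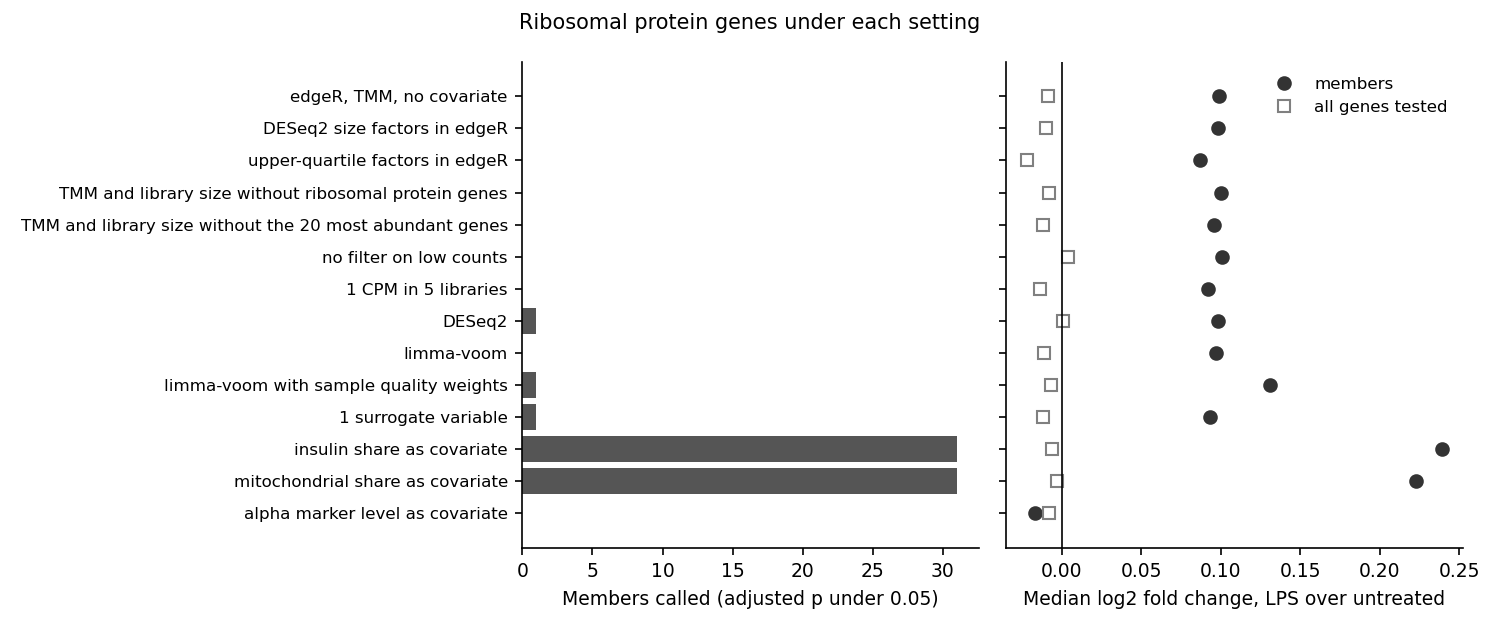
Number of ribosomal protein genes called at an adjusted p under 0.05 (left, bars from 0) and median log2 fold change of the members and of all genes tested (right), under each normalisation, filter, test and covariate. The count is 0 or 1 except with the insulin or mitochondrial share as a covariate, where it is 31, and the members' median is below 0 only with the alpha cell marker level as a covariate.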

How the data were processed

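The deposited tables hold raw counts per Ensembl gene, 1 per library. Per the submitters' processing notes, FastQC, Trimmomatic, STAR, SAMtools, HTSeq, DESeq2 and build GRCm39 were used. The sources used here give no version, annotation release or strand setting. Rows that name no gene (15.4 to 20.2% of reads) were left out. Symbols came from GENCODE M21 (52073 of 56748 identifiers), as did biotypes and coding lengths. Every pair of libraries of a group differed by more than sampling noise.

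Genes were filtered (filterByExpr, minimum count 10), scaled by TMM and tested with edgeR 4.0.16 (quasi-likelihood, no covariate, Benjamini-Hochberg over 15942 genes) in R 4.3.3, after a check on simulated counts. CPM are TMM-normalised, while shares, summed markers of single libraries and the level of Rps4l use counts assigned to genes. Within-group SDs use log2 CPM (prior count 2). Alternatives were DESeq2 1.42.0, limma 3.58.1, sva 3.50.0, other scalings and filters, leaving out each library, and 3 covariates added later. Python 3.11.15 drew the figures.

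Members and lists were chosen with earlier results of these data known. Named members were those called or separated, the 5 most abundant and the 3 at either end of fold change per subunit, the 3 with most and least spread, and 25 fixed by name. Of other lists, called genes (up to 3, or the 2 most abundant) were named, and related ribosomal genes in part. Some named genes are not reported here.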

Additional observations from a re-analysis of the deposited data

Results flagged for a closer look

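Within-group values of 80 groups of 5 libraries were screened for a library far from the other 4, which chance gives in about 1 in 20. The screen picked 3. Rpl29 in LPS 8 was low at 17.5 CPM, the other LPS libraries being at 33.9 to 35.2 CPM. Rpl29 in untreated 5 was high at 35.2 CPM, the other untreated libraries being at 26.6 to 28.6 CPM. Rps29 in untreated 5 was high at 207 CPM, the other untreated libraries being at 184 to 188 CPM.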

How the results depend on the processing

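No paired analysis was run, because the labels name no animal or preparation that links an LPS library to an untreated one. The members' mean deviation from the group mean, in log2 CPM, followed a similar order in both groups. It was -0.05, -0.07, -0.22, 0.10 and 0.24 in LPS 6 to 10, and -0.04, -0.13, -0.14, 0.10 and 0.21 in untreated 1 to 5. Whether libraries of both groups shared animals or a preparation was not tested, and the SEs treat all libraries as unpaired. Against none of the members and 601 of all genes called, DESeq2 called 1 and 949, limma-voom with sample quality weights 1 and 994, and 1 surrogate variable 1 and 1287, the member being Rpl39 each time. Chosen after seeing the data, the insulin share as a covariate gave 31 and 2497 and the mitochondrial share 31 and 1579. With single libraries left out, 0 to 3 members (3 without untreated 5: Rpl39, Rplp2 and Rps20) and 401 to 624 genes were called, and the members' median log2 fold change ran from 0.029 (without LPS 10) to 0.154 (without untreated 5). The difference in the share of counts, 0.151 percentage points, LPS minus untreated, ran from 0.0608 to 0.222 and was 0.147 of all reads and 0.131 without the 20 most abundant genes. Of 827 values of 36 named genes, 734 kept direction and call, 30 became calls and 63 changed sign, all of uncalled genes. With the alpha cell marker covariate Rpl10 stood at -0.05, Rpl11 -0.02, Rpl21 -0.13, Rpl23a -0.11, Rpl29 -0.04, Rpl41 -0.09, Rpl5 -0.07, Rpl8 -0.03, Rps10 -0.07, Rps14 -0.10, Rps19 -0.01, Rps2 -0.04, Rps25 -0.01, Rps27 -0.02, Rps27a -0.07, Rps4x -0.07, Rps6 -0.05 and Rps9 -0.02. Rpl24 was at 0.07 with the insulin covariate and Rps10 at -0.01 with the surrogate variable. Rpl21, Rpl23a and Rps14, at 0.00, 0.00 and 0.01 as reported, also turned with upper-quartile scaling (-0.01, -0.01 and -0.00) and the surrogate variable (-0.00 each). Rpl21 and Rpl23a turned with the filter of 1 CPM in 5 libraries (-0.00 and -0.01). Rpl23a alone turned with scaling without the 20 most abundant genes (-0.00), with limma-voom (-0.03) and with its quality weights (-0.09). Leaving out single libraries gave -0.06 to 0.07 for Rpl21, -0.07 to 0.12 for Rpl23a, -0.04 to 0.08 for Rpl5, -0.04 to 0.15 for Rpl41, -0.09 to 0.14 for Rps10, -0.07 to 0.07 for Rps14, -0.02 to 0.13 for Rps27a, -0.03 to 0.08 for Rps4x and -0.02 to 0.13 for Rps6. The cause of these changes was not tested. Depth limits Rpl24 and Rps10, with 75 and 239 counts over the LPS and 102 and 257 over the untreated libraries.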
